A study of Homo sapiens with 9 samples.

Results

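The zinc finger genes of human chromosome 19 were followed here through their chromatin accessibility. They were taken as the protein-coding GRCh38 genes on that chromosome whose symbol starts with ZNF, which gave 250 of 20052 protein-coding genes. A counted region whose centre lay within 1 kb of either end of such a gene was put in the gene-end class, and any other region with its centre inside a gene was put in the gene-body class. Of the 148797 regions in the data, 218 fell in the gene-end class and 237 in the gene-body class. Position and symbol alone decided which genes and regions belong, and no measured value did. The rule itself was chosen with earlier results of these data known. Among the 250 symbols, 4 name a joined transcript or a divergent transcript of a neighbour (ZNF559-ZNF177, ZNF765-ZNF761, ZNF816-ZNF321P and ZNF470-DT).

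All 9 libraries came from SK-N-BE(2)c, an established neuroblastoma cell line, so every group shares that 1 line. The cells were transfected with 100 nM of an antisense oligonucleotide using a lipofectamine reagent and collected 48 h later. ASO2 and ASO10 are both directed at NESPR, a long noncoding RNA, and NCA is the negative control oligonucleotide, with 3 libraries in each group. No untransfected group was analysed here, the NESPR level was not analysed here, and every control library carried the transfection as well. In the assay for transposase-accessible chromatin (ATAC-seq), the Tn5 transposase inserts sequencing adapters where DNA is not covered by nucleosomes, so the count in a region rises with its accessibility. In a bulk sample, fewer cells with an open region and a less open region in every cell cannot be told apart. Nothing states that the replicates were separate cultures, so the p-values measure only the spread between these libraries, which may be technical.

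C2H2 zinc finger genes form the largest family of human transcription factors, and chromosome 19 holds dense tandem clusters of them. Many carry a KRAB domain, which recruits the corepressor TRIM28 and through it SETDB1, the histone methyltransferase that deposits H3K9me3, and HP1 proteins. KRAB zinc finger proteins are known for silencing transposable elements, and the genes themselves carry H3K9me3 over their 3′ exons while their promoters stay open. Their fingers are repeated and similar between neighbours, so reads from near-identical copies can be hard to assign.

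The start windows of the genes whose gene-end region passed the test in at least 1 comparison show what DNA lies under those regions. The windows run from 250 bases before to 50 bases after the RefSeq start, 5′ to 3′ on the gene's strand, in GRCh38.p14. They lie at chr19:2867085-2867384 on the plus strand for ZNF556, chr19:11766750-11767049 on the plus strand for ZNF441, chr19:12162846-12163145 on the plus strand for ZNF136 and chr19:43596142-43596441 on the plus strand for ZNF576. The windows of ZNF285 (chr19:44401559-44401858) and ZNF787 (chr19:56121246-56121545) are on the minus strand. Capitals mark the letters GGGCGG (a core bound by SP1 and its relatives), CCGGAAGT (a core bound by ETS factors) and GCGCATGC (part of the NRF1 site), each on either strand.
ZNF556: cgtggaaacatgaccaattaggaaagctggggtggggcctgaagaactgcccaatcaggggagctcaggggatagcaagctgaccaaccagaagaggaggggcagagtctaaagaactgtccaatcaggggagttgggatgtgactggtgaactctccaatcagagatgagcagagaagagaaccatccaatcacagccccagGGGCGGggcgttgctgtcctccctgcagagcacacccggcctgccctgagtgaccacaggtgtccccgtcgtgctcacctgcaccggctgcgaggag
ZNF441: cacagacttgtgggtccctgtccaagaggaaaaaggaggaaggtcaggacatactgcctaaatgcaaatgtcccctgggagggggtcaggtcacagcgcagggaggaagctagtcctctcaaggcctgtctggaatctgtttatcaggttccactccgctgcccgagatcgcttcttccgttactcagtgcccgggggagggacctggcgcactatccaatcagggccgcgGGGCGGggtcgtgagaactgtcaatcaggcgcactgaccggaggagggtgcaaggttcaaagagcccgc
ZNF136: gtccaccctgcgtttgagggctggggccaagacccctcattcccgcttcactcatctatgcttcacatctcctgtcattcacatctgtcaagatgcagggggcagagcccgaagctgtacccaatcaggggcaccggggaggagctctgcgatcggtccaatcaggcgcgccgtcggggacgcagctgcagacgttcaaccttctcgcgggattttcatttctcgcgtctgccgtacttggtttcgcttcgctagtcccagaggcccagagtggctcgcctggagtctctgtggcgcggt
ZNF576: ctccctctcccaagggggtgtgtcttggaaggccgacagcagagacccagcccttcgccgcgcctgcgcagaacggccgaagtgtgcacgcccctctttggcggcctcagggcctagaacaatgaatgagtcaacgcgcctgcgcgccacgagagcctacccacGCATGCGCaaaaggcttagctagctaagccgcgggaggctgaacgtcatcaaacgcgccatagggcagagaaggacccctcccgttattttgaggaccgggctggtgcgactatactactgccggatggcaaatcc
ZNF285: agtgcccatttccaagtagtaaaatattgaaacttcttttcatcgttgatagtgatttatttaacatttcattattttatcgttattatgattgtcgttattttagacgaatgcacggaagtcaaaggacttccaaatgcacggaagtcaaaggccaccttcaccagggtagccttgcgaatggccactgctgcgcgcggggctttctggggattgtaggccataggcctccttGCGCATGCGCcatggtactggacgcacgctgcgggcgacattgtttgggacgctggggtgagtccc
ZNF787: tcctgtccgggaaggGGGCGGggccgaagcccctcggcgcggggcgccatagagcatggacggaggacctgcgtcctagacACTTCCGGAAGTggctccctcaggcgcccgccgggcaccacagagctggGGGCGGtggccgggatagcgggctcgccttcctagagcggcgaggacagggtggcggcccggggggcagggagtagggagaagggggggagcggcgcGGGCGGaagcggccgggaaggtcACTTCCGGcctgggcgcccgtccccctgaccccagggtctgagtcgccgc

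The 6 windows differ in composition and share no single searched motif. GC made up 48.0% of the ZNF285 window and 75.0% of the ZNF787 window, with the other four between 59.0% and 62.0%. ZNF136 held none of the 3 sets of letters marked here. ZNF787 held both the SP1 and the ETS letters, and ZNF285 held overlapping NRF1 letters close to its start.

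Windows of the most distal cluster, which runs from ZNF264 to ZNF446, are shown by a site of 30 bases. The ETS letters recur there close to the start and mostly in the same direction. The sites shown are examples picked from those in that direction. In 2 windows of the cluster, among them that of ZNF606, the letters ran in the other direction. The sites below are read in the direction of transcription with the ETS letters in capitals.
ZNF264: gtgggggcgggACTTCCGGgttgctcgctg
ZNF419: caatgggcgggACTTCCGGcgtctcgtttg
ZNF134: ctctgggcgggACTTCCGGtatcttcctcg
ZNF671: gcgtgggcgggACTTCCGGctcctccttgt
ZNF776: ataaaggtgggACTTCCGGcgtcctctact
ZNF587B: aatgggtccggACTTCCGGcgccctctggt
ZNF814: aatgggtccggACTTCCGGcgccctctggt
ZNF132: tgagaggcgggACTTCCGGcgccgccattg
The sites of ZNF587B and ZNF814 are the same in all 30 bases. ZNF264, ZNF419, ZNF134 and ZNF671 share the letters gggcggg directly before the motif, as do ZNF805 and ZNF550, which are not shown.

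A start window was matched by symbol and gene ID for 219 of the 250 genes, 117 on the plus strand and 102 on the minus strand. The ETS letters CCGGAAGT, or ACTTCCGG on the other strand, stood in 45 of these 219 windows (20.5%), against 974 of 15841 windows of all protein-coding genes (6.15%), 43 of 966 windows of the other chromosome 19 genes (4.45%) and 30 of 218 windows of ZNF genes elsewhere (13.8%). In the direction of transcription, ACTTCCGG was present in 34 member windows (15.5%) and CCGGAAGT in 12 (5.48%), while all genes had them in 2.95% and 3.45% of windows. Of 48 matches in member windows, 37 (77.1%) began within 50 bases of the start, against 678 of 1085 (62.5%) over all genes. The SP1 letters GGGCGG were present in 67.1% of member windows and in 58.3% of all windows. The CACGTG E-box was present in 4.11% against 8.83%, and the NRF1 letters in 4.57% against 4.28%. The remaining motifs searched on both strands were AAGATGGCG of YY1 (3.65% against 2.69%), TCTCGCGA of BANP (1.37% against 1.75%) and ACTACAATT of ZNF143 (1.37% against 0.461%). The member windows had a median GC content of 60.0% (quartiles 56.2% and 64.3%), and all windows one of 62.7%. These are counts of letters in a window and show no binding.

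The tandem clusters differed in these letters. Neighbouring member genes less than 500 kb apart were joined, and groups of at least 5 genes gave 10 clusters that hold 236 of the 250 genes. In the most distal cluster, 23 of 40 windows (57.5%) held the ETS letters, 21 of them as ACTTCCGG in the direction of transcription. In the large pericentromeric cluster from ZNF101 to ZNF254, which spans 4.46 Mb, 0 of 29 windows held them. The cluster from ZNF653 to ZNF791 had the ETS letters in 1 of 24 windows (4.17%) and the SP1 letters in 95.8%. The SP1 letters were at their lowest shares in the ZNF565 to ZNF573 cluster (28.0%) and the ZNF575 to ZNF180 cluster (31.6%).

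Library depth was even, with 7293565 to 10948569 counts per library over all regions. Values are given in CPM, the count scaled to a common library total, with TMM scaling, whose factors lay between 0.9755 and 1.019, and levels compared between genes are CPM per kb of region. Of 10 adrenergic neuroblastoma markers, 8 had a region at a gene end, among them HAND2, with control levels of 5.58 to 23.5 CPM per kb, and MYCN and TH had none. Regions were present at 2 of 6 mesenchymal markers (FN1 and FOSL1), at 1 of 4 blood markers (SPI1) and, as 1 shared region, at KRT8 and KRT18 among 4 epithelial markers. Their control levels were 7.84 to 11.1, 9.65 and 6.32 CPM per kb, inside the range of the adrenergic markers.

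Most of these genes had an open region at an end. At least 1 gene-end region was present at 213 of the 250 genes, and 16 genes had more than 1. Of the 37 genes without one, 29 had a gene-body region only. The other 8 had no counted region (ZNF177, ZNF492, ZNF99, ZNF728, ZNF404, ZNF534, ZNF835 and ZNF154). Of the 218 gene-end regions, 181 lay at the gene start and 15 at the other end, and 22 could not be placed because no strand was matched. An end shared by 2 member genes accounted for 11 regions, and 11 regions also lay at the end of a gene outside the family.

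In the NCA libraries the gene-end regions had a median of 14.6 CPM per kb, with quartiles of 10.9 and 21.4 and a range of 1.81 to 41.9. The median over all protein-coding gene ends was 11.6, and that over all regions was 5.71 CPM per kb. Gene-body regions had a median of 5.16 CPM per kb. The 39 body regions within 1 kb of another listed start of the same gene had a median of 17.5, and the remaining body regions one of 4.50 CPM per kb. The lowest gene-end levels lay at the end opposite the start, at ZNF461 (1.81 CPM per kb) and ZNF135 (2.08 CPM per kb). ZNF208 had 3.11 CPM per kb at its start.

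The 5 most accessible gene-end regions in the control all lay in the ZNF101 to ZNF254 cluster. ZNF486 led with 41.9 ± 3.25 CPM per kb (SD, n = 3). It was followed by ZNF714 at 37.8 ± 4.77, ZNF43 at 37.5 ± 4.79, ZNF724 at 37.5 ± 5.76 and ZNF682 at 37.1 ± 2.44 CPM per kb (SD, n = 3 each), which lie within each other's spread. None of the 5 passed the test in any comparison. Their start windows shared 21.0% (ZNF486), 11.6% (ZNF714), 15.9% (ZNF43), 21.7% (ZNF724) and 0% (ZNF682) of their 25-base words with windows of other genes. Of all 219 member windows, 133 shared none. The ZNF43 window lies outside the region ranked here. How shared sequence affects these levels was not tested. The median of that cluster, 28.1 CPM per kb, was above those of the other 9 clusters, which ran from 10.3 (ZNF175 to ZNF331) to 24.6 (ZNF554 to ZNF77).

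**Figure D1:**
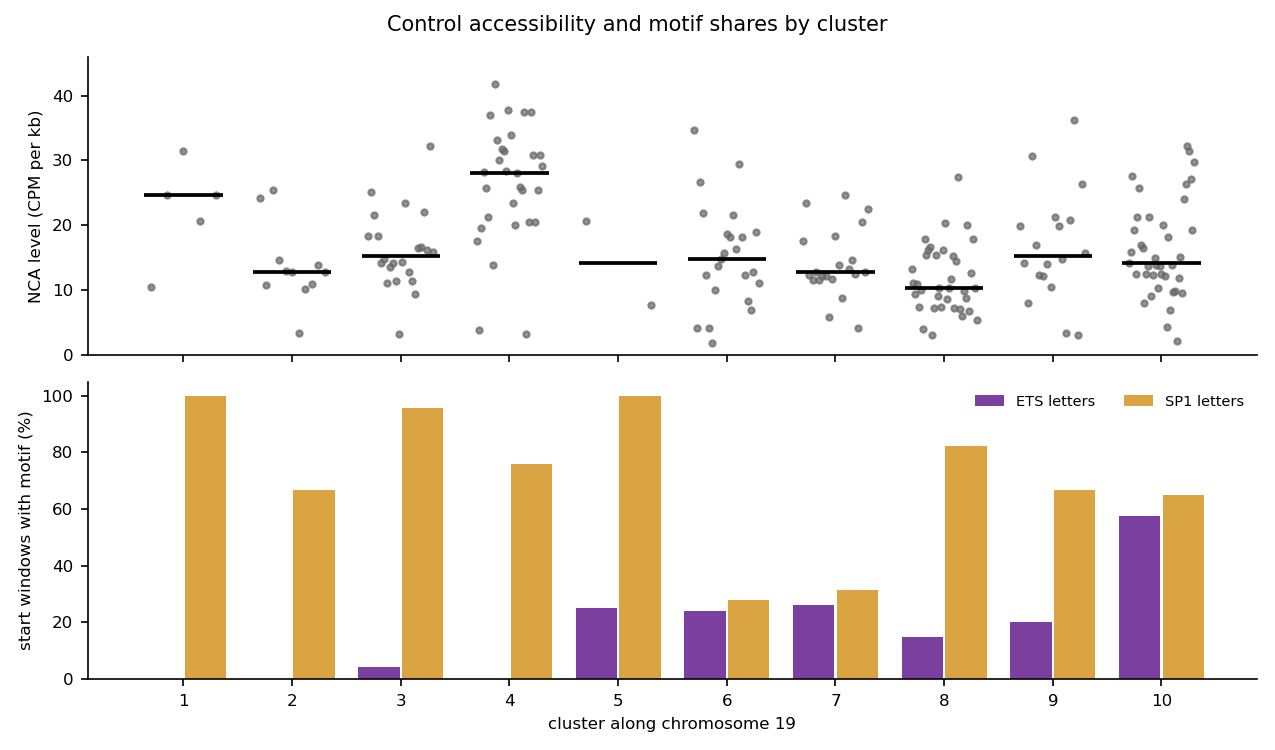
Accessibility in the control libraries and motif letters by cluster, numbered along chromosome 19 from 1 (ZNF554 to ZNF77) to 10 (ZNF264 to ZNF446). Upper panel: mean NCA level of each gene-end region in CPM per kb, with the cluster median as a bar, highest at 28.1 in cluster 4. Lower panel: percent of start windows with the ETS letters (57.5% in cluster 10, 0% in cluster 4) and with the SP1 letters.

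Few gene-end regions differed between ASO2 and NCA. Of 214 tested regions (4 of the 218 were too low to test), 3 passed edgeR's quasi-likelihood test at an adjusted p under 0.05: ZNF556 and ZNF136 rose and ZNF787 fell. That is 1.40%, against 5.60% of all 119417 tested regions in the same comparison, of which 4.80% were higher and 0.807% lower. Over all protein-coding gene ends 1.53% passed. The median log2 fold change of the 214 regions was -0.042, beside -0.053 for all gene ends and -0.024 for all regions, and 93 of the 214 (43.5%) were positive. At an unadjusted p under 0.05 there were 14 of the 214 (6.54%), beside 16.5% of all regions and 10.4% of all gene ends.

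In ASO10 against NCA, 3 of 214 gene-end regions passed, and all 3 rose: ZNF556, ZNF136 and ZNF441. That is 1.40%, against 1.09% of all tested regions, of which 0.875% were higher and 0.210% lower, and against 2.14% of all gene ends. The median log2 fold change was 0.085 with 131 of 214 (61.2%) positive, but it was -0.0050 with 104 positive when intensity-dependent loess offsets replaced TMM. All gene ends had a median of 0.086 under TMM and 0.015 under loess. The gene ends of chromosome 19 outside the family had a median of 0.18 under TMM and 0.12 under loess, and 56 of 797 (7.03%) passed, 55 of them higher. At an unadjusted p under 0.05 there were 23 of the 214 family regions (10.7%), beside 10.6% of all regions and 17.3% of all gene ends. The difference between the family and the other genes of the chromosome was not tested.

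ASO2 and ASO10 were also set against each other directly, since both target the same RNA. Here 2 of 214 gene-end regions passed, ZNF285 higher in ASO2 and ZNF576 lower, which is 0.935% against 3.23% of all regions (2.55% higher and 0.682% lower in ASO2). The median log2 difference was -0.10, beside -0.15 for all gene ends and -0.22 for the other chromosome 19 gene ends, where 52 of 797 (6.52%) passed, all lower in ASO2. At an unadjusted p under 0.05 there were 36 of the 214 (16.8%), beside 14.6% of all regions and 20.0% of all gene ends. The 3 control libraries enter both comparisons with NCA, so their values are given side by side and not as separate evidence for each other.

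**Figure D2:**
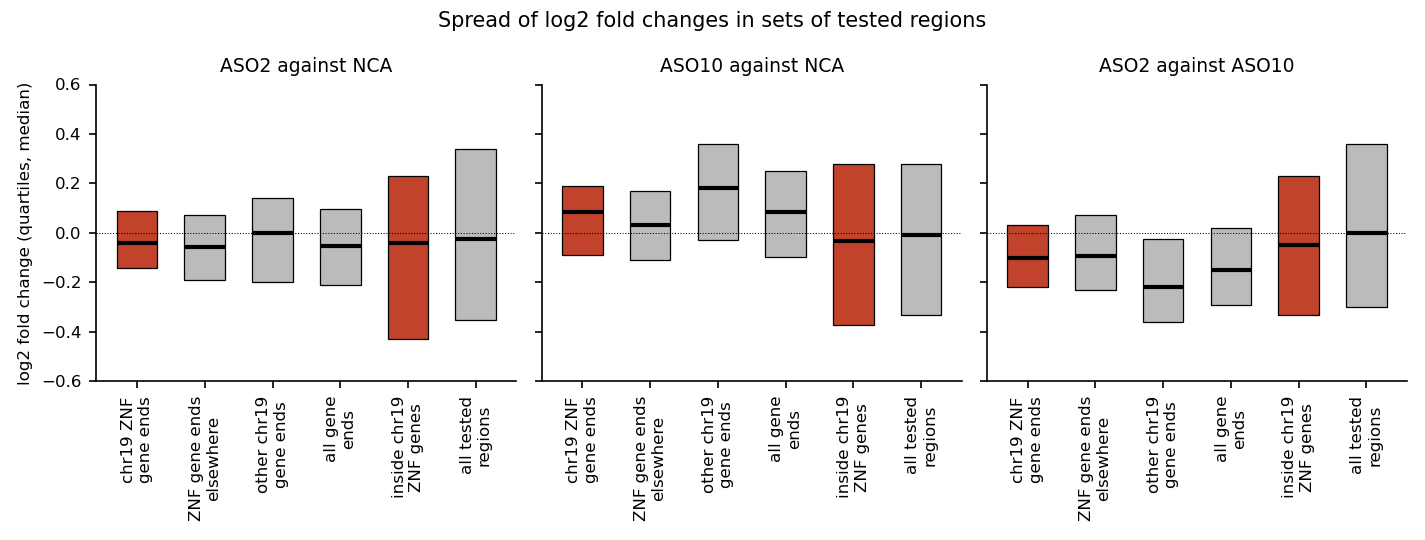
Log2 fold changes in sets of tested regions for the 3 comparisons. Boxes run from the lower to the upper quartile with the median as a line, and red marks the chromosome 19 ZNF classes. Medians of the gene-end class are -0.042 for ASO2, 0.085 for ASO10 (-0.0050 with loess offsets) and -0.10 for ASO2 against ASO10, near those of all gene ends.

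The class as a whole differed little between groups. Gene-end regions of the family took 0.374%, 0.345% and 0.370% of the counts in NCA replicates 1 to 3, 0.352%, 0.371% and 0.340% in ASO2, and 0.387%, 0.376% and 0.376% in ASO10. The 3 ASO10 shares were above every other library, while the ASO2 and NCA shares overlapped. The same order held for all gene ends, with 23.8% to 25.1% in ASO10 and 20.9% to 23.4% in the other 6 libraries. It also held for the other chromosome 19 gene ends, with 1.34% to 1.39% and 1.12% to 1.22%. It did not hold for ZNF gene ends on other chromosomes. Their shares were 0.507%, 0.480% and 0.484% in ASO10 and 0.485%, 0.460% and 0.496% in NCA, which overlap. The median log2 difference of the 214 regions from the NCA mean was 0.11, 0.055 and 0.087 in the ASO10 libraries. It was -0.031, 0.070 and -0.096 in the ASO2 libraries and 0.048, -0.039 and 0.0039 in the NCA libraries. The SD of this class median between replicates was 0.0563.

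ZNF556, a KRAB zinc finger gene in the cluster nearest the short-arm end of the chromosome, had a more accessible start in both treated groups. The region (chr19:2866791-2867442) gave 20.9, 19.3 and 21.2 CPM in the NCA libraries, 31.6, 32.9 and 23.0 in ASO2 and 27.0, 27.8 and 36.6 in ASO10. All 6 treated libraries were above the 3 control libraries. It rose by a log2 fold change of 0.50 ± 0.14 (SE) in ASO2 (edgeR adjusted p = 0.00739) and 0.57 ± 0.14 in ASO10 (edgeR adjusted p = 0.00759), with means of 20.5 ± 0.990, 29.1 ± 5.41 and 30.5 ± 5.34 CPM (SD, n = 3) in NCA, ASO2 and ASO10. The direct difference was -0.069 (edgeR adjusted p = 0.866). The ASO2 call was lost without ASO2 replicate 1, ASO2 replicate 2 or NCA replicate 2 (edgeR adjusted p 0.0621 to 0.127), and the ASO10 call without ASO10 replicate 3, NCA replicate 1 or NCA replicate 2 (0.0505 to 0.319).

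ZNF136, which encodes a KRAB zinc finger repressor, had the largest rise among the called gene ends. Its region (chr19:12162728-12163563) gave 14.4, 13.8 and 12.9 CPM in NCA, 25.0, 22.8 and 19.1 in ASO2 and 20.9, 19.5 and 20.0 in ASO10. The lowest treated library, at 19.1, lay above the highest control, at 14.4. In ASO2 the log2 fold change was 0.70 ± 0.15 (edgeR adjusted p = 0.000387) and held under all 9 other settings and without each library in turn. In ASO10 it was 0.56 ± 0.16 (edgeR adjusted p = 0.0377). The ASO10 call was lost with total-count scaling, loess offsets, limma-voom and the replicate block (adjusted p 0.0521 to 0.0836), and without NCA replicate 1, 2 or 3, ASO10 replicate 1, 2 or 3, or ASO2 replicate 1 (0.0516 to 0.197).

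ZNF441, a KRAB gene in the same cluster as ZNF136, rose in ASO10. The region (chr19:11766671-11768002) gave 24.2, 22.2 and 26.8 CPM in NCA, 30.5, 25.4 and 29.1 in ASO2 and 33.1, 33.2 and 38.2 in ASO10. The ASO10 libraries were above all others, and the ASO2 libraries overlapped the control. The log2 fold changes were 0.51 ± 0.13 in ASO10 (edgeR adjusted p = 0.0172) and 0.21 ± 0.13 in ASO2 (edgeR adjusted p = 0.439), and the direct test of ASO2 against ASO10 gave -0.30 ± 0.13 (edgeR adjusted p = 0.217). The ASO10 call was lost with loess offsets (0.0703) and without ASO10 replicate 1, ASO10 replicate 3, NCA replicate 1 or NCA replicate 2 (0.0634 to 0.235). Its window shared 4.71% of its 25-base words with that of ZNF563.

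ZNF787, a C2H2 gene in the ZNF628 to ZNF835 cluster, had the single gene-end region that fell. It gave 37.5, 38.6 and 47.6 CPM in NCA, 31.7, 33.1 and 28.4 in ASO2 and 36.4, 34.2 and 38.7 in ASO10 (chr19:56119997-56121945). Every ASO2 library was below every control library, and ASO10 overlapped the control. It fell in ASO2, with a log2 fold change of -0.41 ± 0.12 (edgeR adjusted p = 0.0206) and -0.18 ± 0.12 in ASO10 (edgeR adjusted p = 0.646). Without NCA replicate 3, ASO2 replicate 1 or ASO2 replicate 3 the ASO2 call was lost (edgeR adjusted p 0.0767 to 0.310).

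ZNF285, a KRAB gene, had the smallest adjusted p among the members in the direct comparison. The region (chr19:44401127-44401885) gave 21.4, 17.9 and 22.6 CPM in ASO2, 12.3, 12.3 and 13.0 in ASO10 and 17.4, 12.3 and 16.9 in NCA. The ASO2 libraries were above all 6 others, and ASO10 overlapped the control. The direct log2 difference was 0.72 ± 0.16 (edgeR adjusted p = 0.000875), and it held under all 9 other settings and without each library in turn. Neither oligonucleotide passed against NCA, with 0.41 ± 0.16 in ASO2 (edgeR adjusted p = 0.106) and -0.31 ± 0.16 in ASO10 (edgeR adjusted p = 0.498).

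ZNF576 shares its region (chr19:43594861-43596870) with the end of IRGQ, and its start window shared 79.3% of its 25-base words with that of IRGQ, so the value belongs to both genes. It gave 29.8, 30.7 and 27.2 CPM in ASO2, 38.6, 37.6 and 39.8 in ASO10 and 34.7, 34.6 and 36.6 in NCA. The 3 groups did not overlap, with NCA in between. The direct log2 difference was -0.41 ± 0.12 (edgeR adjusted p = 0.0394). This call was lost with loess offsets, no filter or the replicate block (adjusted p 0.0646 to 0.192). It was also lost without ASO2 replicate 1 or 3, ASO10 replicate 1, 2 or 3, or NCA replicate 1 or 3 (0.0520 to 0.190).

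**Figure D3:**
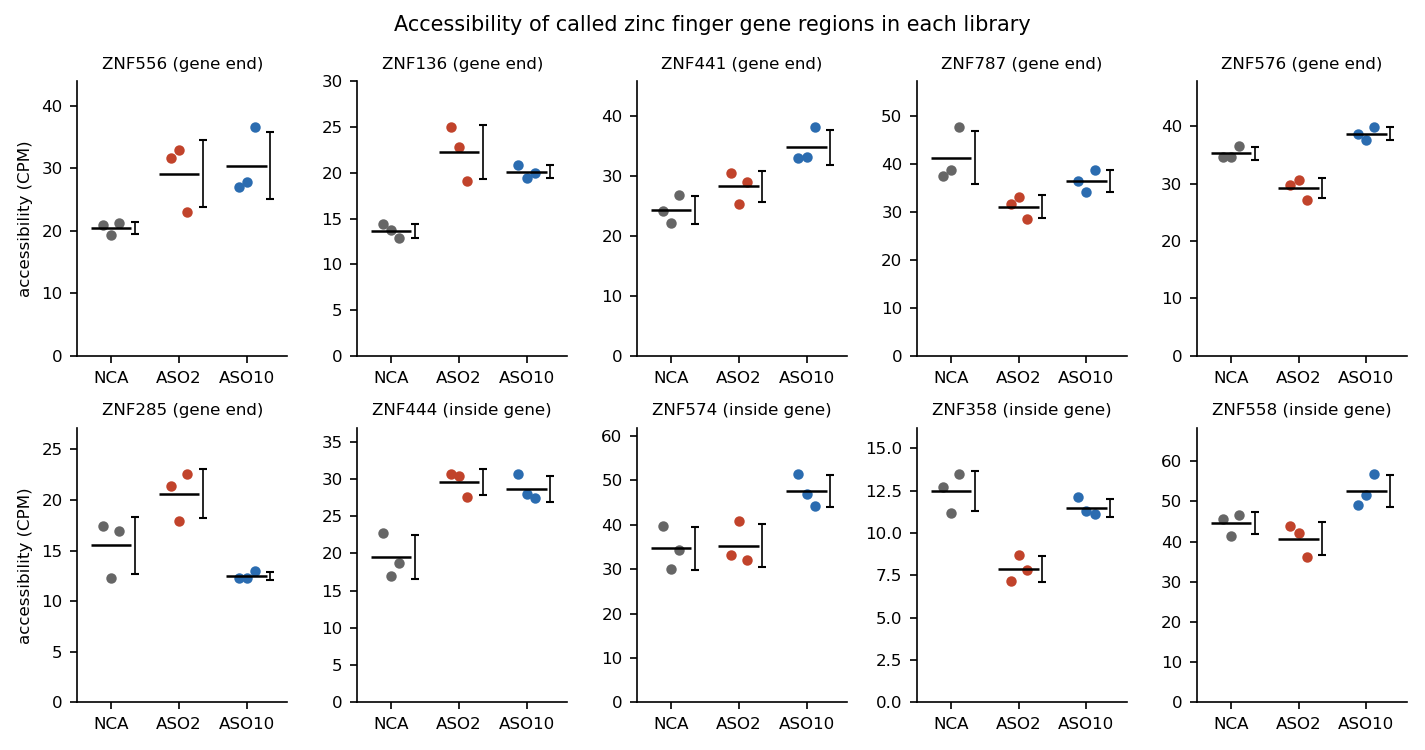
CPM in each library for 10 of the member regions that passed at least 1 comparison: 6 at gene ends and 4 inside genes. Points are libraries, horizontal bars are group means and error bars are SD (n = 3). In ZNF556, ZNF136 and ZNF444 all ASO2 and ASO10 libraries lie above the 3 NCA libraries.

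Inside the genes, 5 of 175 tested body regions passed in ASO2 (2.86%), 4 higher and 1 lower, against 5.60% of all regions. In ASO10 2 passed (1.14%), both higher, against 1.09%. In the direct comparison 6 passed (3.43%), 3 in each direction, against 3.23%. Another 62 body regions were too low to test. The median log2 fold changes were -0.041 in ASO2 and -0.049 in the direct comparison, and that in ASO10 was -0.032 (0.013 with limma-voom). ZNF536 alone held 41 of the 237 body regions (17.3%). Without it 140 tested body regions remained, of which 2 passed in ASO2, 2 in ASO10 and 3 in the direct comparison.

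ZNF444, a zinc finger gene with a SCAN domain next to ZNF787, rose in both treated groups at a region inside the gene (chr19:56133584-56134864). The NCA libraries gave 22.8, 17.0 and 18.7 CPM, ASO2 30.7, 30.4 and 27.6 and ASO10 30.7, 28.0 and 27.4. All treated libraries lay above the control, with means of 19.5 ± 2.97, 29.6 ± 1.72 and 28.7 ± 1.78 CPM (SD, n = 3) in NCA, ASO2 and ASO10. The log2 fold change was 0.60 ± 0.14 in ASO2 (edgeR adjusted p = 0.000721), which held under all 9 other settings and without each library in turn. In ASO10 it was 0.56 ± 0.14 (edgeR adjusted p = 0.0116), and the call was lost without ASO10 replicate 1, NCA replicate 2 or NCA replicate 3 (0.0856 to 0.165).

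Of the other called body regions outside ZNF536, 3 lay at a listed internal start. At ZNF574 (chr19:42075644-42076539) the NCA libraries gave 39.8, 30.1 and 34.3 CPM, ASO2 33.1, 40.8 and 32.1 and ASO10 51.5, 46.9 and 44.3. The ASO10 libraries lay above all others while ASO2 and NCA overlapped. It rose by 0.46 ± 0.12 on the log2 scale in ASO10 (edgeR adjusted p = 0.0238). The log2 value for ASO2 against NCA was 0.026 ± 0.12 (edgeR adjusted p = 0.949), and ASO2 was lower than ASO10 with a log2 difference of -0.43 ± 0.12 (edgeR adjusted p = 0.0177). The ASO10 call was lost with loess offsets and the replicate block (adjusted p 0.0508 to 0.137) and without NCA replicate 2 or 3 or ASO10 replicate 1, 2 or 3 (0.0701 to 0.282). The direct call was lost with loess offsets (0.134) and without ASO2 replicate 1 or 3 or ASO10 replicate 1 or 2 (0.0704 to 0.189).

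ZNF358, a C2H2 gene outside the clusters, fell in ASO2 at chr19:7515342-7516881. It gave 12.7, 11.2 and 13.5 CPM in NCA, 7.14, 8.70 and 7.80 in ASO2 and 12.1, 11.3 and 11.1 in ASO10. The ASO2 libraries were below all 6 others. It differed by -0.66 ± 0.19 on the log2 scale in ASO2 (edgeR adjusted p = 0.0171), -0.12 ± 0.19 in ASO10 (edgeR adjusted p = 0.880) and -0.54 ± 0.19 directly (edgeR adjusted p = 0.104). Without NCA replicate 1 or 3 or ASO2 replicate 1 or 3 the ASO2 call was lost (0.0609 to 0.111).

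At ZNF558, a KRAB gene known as a repressor of SPATA18 in neural progenitors, ASO10 was higher than ASO2 at chr19:8831992-8833250. The values were 43.9, 42.2 and 36.2 CPM in ASO2, 49.2, 51.5 and 56.9 in ASO10 and 45.7, 41.5 and 46.7 in NCA. The ASO10 libraries were above all others. The direct log2 difference was -0.37 ± 0.12 (edgeR adjusted p = 0.0480), close to the threshold. It was lost with loess offsets, no filter or the replicate block (0.0800 to 0.338) and without any 1 library except NCA replicate 2 (0.0618 to 0.314). Its start window shared 53.6% of its 25-base words with that of MBD3L1.

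The region inside ZNF578 (chr19:52498236-52498522) rests on few counts. The 3 libraries had 9, 5 and 25 counts in ASO2, 0, 2 and 0 in ASO10 and 11, 10 and 8 in NCA. ASO10 was therefore below both other groups, and ASO2 replicate 3 held 25 of the 39 ASO2 counts. Summed counts scaled by library size gave a ratio of ASO2 to ASO10 of 17.8, with an exact 95% interval of 4.61 to 152 that covers counting error only. The ratio of NCA to ASO10 was 14.8 (3.74 to 128) and that of ASO2 to NCA 1.21 (0.727 to 2.02). The direct comparison passed (edgeR adjusted p = 0.0192) and ASO10 against NCA did not (edgeR adjusted p = 0.0691). Only 6 of the 9 other settings gave an adjusted p for the direct comparison, and 5 of these kept the call. It was lost with limma-voom (0.0585) and without ASO2 replicate 3, ASO10 replicate 1 or ASO10 replicate 3 (0.114 to 0.239). DESeq2 gave no adjusted p for it, and the filter of at least 10 counts in every library removes the region.

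ZNF536, known as a repressor of neuronal differentiation genes, is unlike the rest of the family in size. It spans 488 kb, against 122 kb for the next longest member and a median of 23.3 kb, and lies outside the clusters. Its start region gave 16.0, 10.6 and 16.0 CPM in NCA, 15.5, 16.7 and 11.7 in ASO2 and 17.2, 16.5 and 14.4 in ASO10. These groups overlapped, with log2 fold changes of 0.032 ± 0.16 in ASO2 and 0.17 ± 0.16 in ASO10 (edgeR adjusted p = 0.954 and 0.768). Of its 35 tested body regions, 3 rose in ASO2 (8.57%, against 5.60% of all regions called), 0 passed in ASO10 (against 1.09%) and 3 passed in the direct comparison (8.57%, against 3.23%).

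The ZNF536 call that held in the most fits lay 322.0 kb from the gene start (chr19:30547054-30548050). It gave 2.90, 2.83 and 3.33 CPM in NCA, 4.67, 7.86 and 6.81 in ASO2 and 4.36, 5.56 and 7.51 in ASO10. All 6 treated libraries were above the control. The log2 fold change was 1.10 ± 0.29 in ASO2 (edgeR adjusted p = 0.00509), lost only without ASO2 replicate 2 (0.0967) among all settings and libraries left out, and 0.93 ± 0.29 in ASO10 (edgeR adjusted p = 0.0924).

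The other ZNF536 calls were less stable. At 131.0 kb from the start (chr19:30356190-30356999), NCA gave 1.64, 1.72 and 4.44 CPM and ASO2 6.86, 3.67 and 5.83, which overlap. The log2 fold change in ASO2 was 1.04 ± 0.33 (edgeR adjusted p = 0.0319). It was lost under DESeq2 (adjusted p = 0.112) and without NCA replicate 1 or 2 or ASO2 replicate 1 or 3 (0.132 to 0.250). At 287.2 kb (chr19:30512329-30513275), NCA gave 8.06, 8.62 and 11.3 CPM, ASO2 14.5, 16.0 and 11.0 and ASO10 13.0, 11.6 and 16.3, with NCA overlapping ASO2 but not ASO10. The log2 fold change was 0.56 ± 0.18 in ASO2 (edgeR adjusted p = 0.0406) and 0.53 ± 0.18 in ASO10 (edgeR adjusted p = 0.146). The ASO2 call was lost in 4 of 9 other settings (DESeq2, limma-voom, loess offsets and a fit of only these 2 groups; 0.0550 to 0.114) and in 5 of 9 fits without 1 library (ASO10 replicate 3, ASO2 replicate 1 or 2, NCA replicate 1 or 2; 0.0552 to 0.306).

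In the direct comparison, ASO2 was higher than ASO10 in a ZNF536 region 28.4 kb from the start (chr19:30253494-30254433). It gave 10.8, 8.49 and 11.7 CPM in ASO2, 5.62, 6.56 and 5.98 in ASO10 and 7.68, 7.15 and 6.54 in NCA, and the ASO2 libraries were above all others. The difference was 0.77 ± 0.22 (edgeR adjusted p = 0.0235), lost without ASO2 replicate 1 or 3 or ASO10 replicate 1, 2 or 3 (0.0611 to 0.181). At 342.2 kb (chr19:30567433-30568145) ASO2 gave 9.47, 10.1 and 10.6 CPM, ASO10 7.45, 6.0 and 4.71 and NCA 7.81, 7.27 and 7.76, so ASO2 was again above all others. The difference was 0.73 ± 0.22 (edgeR adjusted p = 0.0370). It was lost under DESeq2, loess offsets and no filter (0.0513 to 0.0739) and without any 1 ASO2 library or ASO10 replicate 2 or 3 (0.0754 to 0.274).

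The direction was opposite at 162.0 kb (chr19:30386770-30388442), the region of ZNF536 with the highest control mean. It gave 16.9, 12.9 and 15.0 CPM in ASO2, 20.3, 21.1 and 21.1 in ASO10 and 27.7, 16.9 and 16.5 in NCA, where 1 control library stood above the other two. ASO2 was below ASO10 without overlap, by -0.49 ± 0.15 on the log2 scale (edgeR adjusted p = 0.0436). This call was lost under DESeq2, loess offsets, no filter and the replicate block (0.0565 to 0.138) and in every fit without 1 library except NCA replicate 2 or 3 (0.0520 to 0.236).

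**Figure D4:**
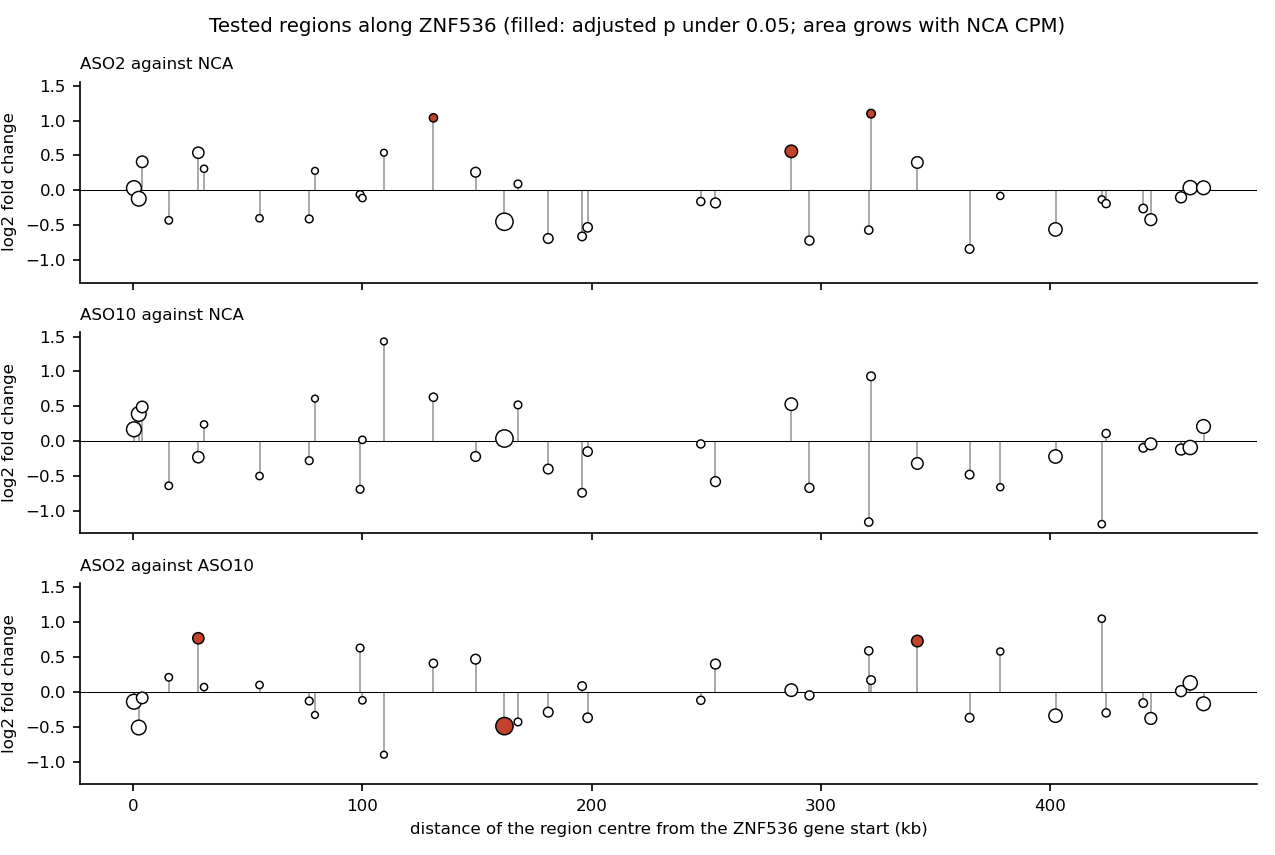
Log2 fold changes of the tested regions along ZNF536 against the distance of the region's centre from the gene start, in kb. Filled points passed an adjusted p of 0.05, and point area grows with the NCA level, which runs from 0.638 to 20.4 CPM over the gene's counted regions. The 3 regions that rose in ASO2 lie at 131.0, 287.2 and 322.0 kb, and none passed in ASO10.

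The gene-end regions were also read cluster by cluster, with no test between clusters. In the cluster from ZNF653 to ZNF791 (chr19:11483429-12633834, 25 genes), which holds ZNF136 and ZNF441, all 22 tested gene-end regions had a positive log2 fold change in ASO10 under TMM and 21 did with loess offsets. Their median was 0.23 (0.12 with loess), and 2 of the 22 passed the test. The ASO10 libraries had cluster medians of 0.26, 0.29 and 0.25 relative to the NCA mean, above the ASO2 libraries (0.084, 0.16 and 0.045) and the NCA libraries (0.016, -0.011 and -0.027). In ASO2 17 of the 22 were positive, with a median of 0.11 (0.065 with loess). The other chromosome 19 gene ends had a median of 0.18 in ASO10 (0.12 with loess), with 72.3% positive and 7.03% called. All gene ends of the family had a median of 0.085 (-0.0050 with loess), with 61.2% positive and 1.40% called. Over all regions 1.09% were called. The difference of the cluster from these sets was not tested.

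The small cluster from ZNF554 to ZNF77, which holds ZNF556, had the highest ASO10 median, 0.40 over 5 regions (0.31 with loess), and all 5 were positive. Of these, 1 passed, and ZNF57 (0.41) and ZNF77 (0.40) did not (edgeR adjusted p = 0.166 and 0.192). At the other extreme was the cluster from ZNF575 to ZNF180, which holds ZNF576 and ZNF285. Its 20 regions had a median of -0.20 in ASO2 (5 positive) and -0.10 in ASO10 (5 positive), or -0.24 and -0.14 with loess offsets. None of these 20 passed against NCA. The cluster medians of its libraries were -0.14, -0.051 and -0.28 in ASO2, -0.071, -0.083 and -0.22 in ASO10 and 0.068, -0.020 and -0.078 in NCA, so the groups overlapped.

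The remaining clusters with 10 or more regions had ASO10 medians between -0.047 and 0.093 (-0.066 and 0.028 with loess offsets). Their ASO2 medians lay between -0.11 and -0.028 (-0.16 and -0.053 with loess). The lowest was that of the ZNF175 to ZNF331 cluster, where 9 of 35 regions were positive in ASO2 and 0 passed in any comparison. Its library medians were -0.11, -0.035 and -0.15 in ASO2, below -0.012, 0.013 and 0.0059 in NCA. They were 0.059, 0.036 and -0.081 in ASO10, which overlapped NCA. The ZNF264 to ZNF446 cluster, with the ETS letters at most of its starts, had a median of -0.028 in ASO2 and 0.088 in ASO10 over 39 regions (-0.065 and 0.0056 with loess), and 0 passed in any comparison. The highly accessible ZNF101 to ZNF254 cluster had -0.042 in ASO2 and 0.087 in ASO10 over 29 regions (-0.053 and -0.020 with loess), and 0 passed.

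**Figure D5:**
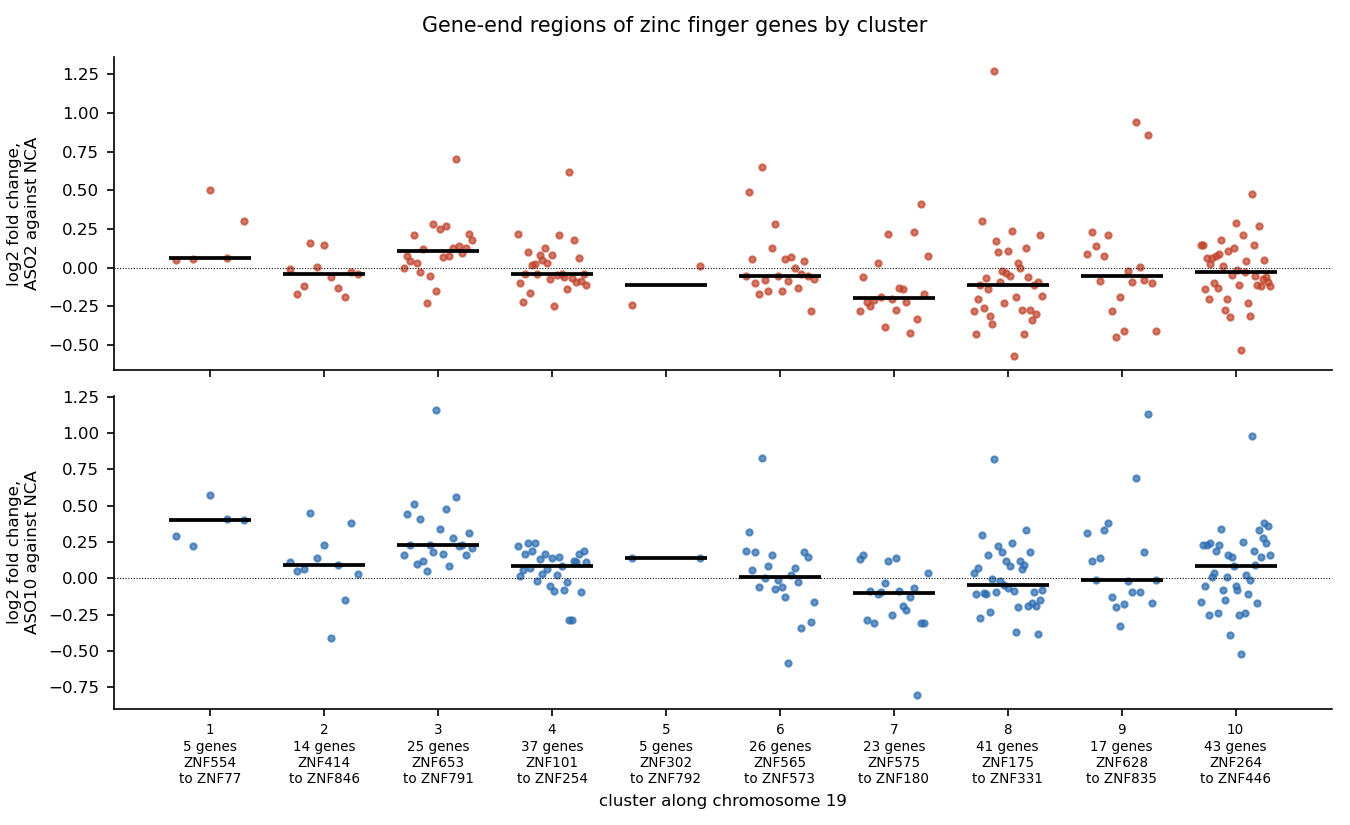
Log2 fold change of each tested gene-end region by cluster along chromosome 19, for ASO2 (upper panel) and ASO10 (lower panel) against NCA under TMM. Bars are cluster medians. In cluster 3 all 22 regions are above 0 in ASO10 (21 with loess offsets), and the median of cluster 7 is -0.20 in ASO2 and -0.10 in ASO10.

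Sequence letters in the start window were set beside the fold changes of the 181 regions at a gene start. Some of these regions, among them those of ZNF43 and ZNF331, have no listed start within 1 kb. For them the letters and GC content come from DNA outside the region. The 36 regions with the ETS letters had a median of -0.0061 in ASO10 (18 positive), and the 145 without had 0.096 (92 positive). The 123 with the SP1 letters had a median of 0.12 in ASO10 (84 positive), and the 58 without had -0.031 (26 positive). In ASO2 the medians were -0.070 with the ETS letters and -0.030 without, and -0.0045 with the SP1 letters and -0.073 without. In the direct comparison they were -0.11 both with and without the ETS letters. For the SP1 letters they were -0.13 with and -0.043 without. All these medians are under TMM scaling only. In 3 equal bins of GC content, the ASO10 medians were 0.024, 0.14 and 0.095 from lowest to highest, and the ASO2 medians -0.045, 0.0080 and -0.047. Spearman's rho with GC content over the 181 regions was 0.15 in ASO10, -0.067 in ASO2 and -0.28 in the direct comparison. Motif, GC content and cluster go together, and all regions come from the same 9 libraries, so the part of each in these values was not tested.

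Several members with known roles were read whatever their values, and none passed at its gene end. ZNF91 and ZNF93, which repress SVA and LINE-1 retrotransposons, had control levels of 30.8 and 21.2 CPM per kb. ZNF91 gave log2 fold changes of -0.089 in ASO2 and 0.11 in ASO10 (edgeR adjusted p = 0.799 and 0.832). ZNF93 gave 0.10 and 0.24 (edgeR adjusted p = 0.764 and 0.497). ZNF274, which binds the 3′ ends of zinc finger genes and brings SETDB1 there, had 15.1 CPM per kb and gave -0.054 and 0.094. The shared start of ZNF382 and ZNF529 gave -0.17 and -0.063. The shared start of ZNF568 and ZNF829 gave 0.28 in ASO2 and -0.076 in ASO10, with 23.5, 24.4 and 21.9 CPM in ASO2 above 19.5, 20.1 and 18.0 in NCA and 19.6, 18.5 and 16.4 in ASO10. That ASO2 difference missed the threshold (edgeR adjusted p = 0.324 against NCA and 0.191 against ASO10).

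ZNF331, an imprinted gene with several promoters, had its most accessible region inside the gene. Its annotated outer start gave 5.40 CPM per kb in NCA, and a region at a listed internal start (chr19:53520440-53521261) gave 40.2 CPM per kb. That region had 34.0, 27.6 and 37.4 CPM in NCA, 30.5, 38.2 and 27.4 in ASO2 and 35.3, 35.5 and 32.1 in ASO10, which overlap. The outer start gave -0.18 in ASO2 and -0.082 in ASO10 (edgeR adjusted p = 0.879 and 0.968).

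The genes that act with KRAB zinc finger proteins were read from a list of 30 corepressors, heterochromatin proteins and DNA methylation genes. A gene-end region was present at 28 of them (not CHD3 or UHRF1), 32 regions in all. Against NCA 0 of the 32 passed for ASO2 or ASO10 by edgeR. Over all gene ends 1.53% passed in ASO2 and 2.14% in ASO10, and over all regions 5.60% and 1.09%. A set of 32 regions is too small to tell 0 calls from these shares. The medians of the 32 were -0.072 in ASO2 and 0.20 in ASO10 (0.10 in ASO10 with loess). TRIM28, the corepressor itself, gave 19.8, 18.6 and 19 CPM in NCA, 19.6, 18.5 and 18.2 in ASO2 and 21.5, 21.6 and 24.6 in ASO10. Its ASO10 libraries were above the others, but the log2 fold change of 0.24 ± 0.15 did not pass (edgeR adjusted p = 0.597). SETDB1 gave 0.20 ± 0.15 in ASO2 and 0.19 ± 0.15 in ASO10 (edgeR adjusted p = 0.559 and 0.723).

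In the direct comparison 3 of the 32 partner regions were lower in ASO2 than in ASO10, and 5 of the 32 were positive, with a median of -0.26 (-0.19 with loess). Over all gene ends 2.93% were called lower in this comparison, 27.7% were positive and the median was -0.15 (-0.095 with loess). Over all regions 0.682% were called lower. The difference of the partners from these sets was not tested. The called partners were the HP1 genes CBX3 (-0.42 ± 0.11, edgeR adjusted p = 0.00753) and CBX5 (-0.40 ± 0.10, edgeR adjusted p = 0.00749) and MORC3 (-0.39 ± 0.12, edgeR adjusted p = 0.0413), a silencing ATPase. All 3 calls were lost with loess offsets (adjusted p 0.211, 0.288 and 0.242), and that of MORC3 also with no filter and with the replicate block (0.0632 to 0.242 over the 3 settings). CBX5 gave 63.1, 79.4 and 65.4 CPM in ASO2, 88.9, 88.3 and 98.1 in ASO10 and 73.9, 73.6 and 79.7 in NCA. CBX3 gave 53.9, 60.5 and 48.2 in ASO2, 76.0, 64.0 and 77.6 in ASO10 and 61.3, 68.5 and 69.1 in NCA. Leaving out 1 library removed the CBX5 call for ASO10 replicate 3 or ASO2 replicate 1 (0.134 to 0.145). The CBX3 call was lost without ASO10 replicate 1 or 3 or ASO2 replicate 1 or 3 (0.0590 to 0.129), and the MORC3 call without any 1 ASO10 library, ASO2 replicate 1 or 3 or NCA replicate 1 or 3 (0.0543 to 0.316).

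Outside chromosome 19, ZNF genes gave 245 tested gene-end regions, of which 0 passed in ASO2, 1 in ASO10 and 7 in the direct comparison. These shares are 0%, 0.408% and 2.86%. Over all gene ends they were 1.53%, 2.14% and 3.31%, and over all regions 5.60%, 1.09% and 3.23%. The medians of the 245 regions were -0.058, 0.033 and -0.095 (-0.090, -0.043 and -0.035 with loess). Those of the chromosome 19 members were -0.042, 0.085 and -0.10 (-0.061, -0.0050 and -0.071 with loess). The difference between these sets was not tested.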

How the data were processed

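The data were ATAC-seq libraries of SK-N-BE(2)c cells. The authors deposited whole-number counts for 148797 regions in 9 libraries, with no normalization in the values. Whether reads, pairs or cut sites were counted, and how insertions were shifted, is not given in the sources used here. Per the submitters' processing notes, FastQC, Bowtie2 2.2.6, SAMtools, MACS2 2.1.2 and DESeq2 1.42.0 were used with the hg38 (GRCh38) build; their order and settings are not stated there. Region starts and ends are printed as deposited.

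Genes came from the RefSeq table of GRCh38.p14, and strand and sequence from its promoter windows. Protein sequences were not analysed here. All 9 libraries were fitted together with edgeR 4.0.16 (R 4.3.3): TMM factors, filterByExpr by group, robust quasi-likelihood fit and test, and Benjamini-Hochberg adjustment over 119417 regions, called at 0.05. CPM use TMM-scaled totals. The fit was also run on simulated counts, drawn from the mean levels of these data and the fit's own dispersions. The changes put in were larger than those called at gene ends here. That run therefore cannot show how well changes of the called size are found. Alternatives used DESeq2 1.42.0, limma 3.58.1 (voom), other scalings (size factors, total counts, loess offsets with a span of 0.3), filters, windows, a replicate block and each library left out. Lists are described by counts and medians and have no test of their own.

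Named genes were all members called in a comparison, the 5 highest control gene ends, ZNF91, ZNF93, ZNF274, ZNF331, ZNF382, ZNF536 and ZNF568, and called partners of KRAB proteins. Low-level examples (ZNF461, ZNF135, ZNF208), ZNF57, ZNF77, TRIM28, SETDB1 and the internal start of ZNF331 were chosen after their values were seen. Members, lists and tests were chosen with earlier results of these data known. Libraries of 1 group differed by 2.69 to 3.36 times the sampling noise in chi-square per degree of freedom, so none was a copy of another.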

Additional observations from a re-analysis of the deposited data

Results flagged for a closer look

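In 8 regions the effects of ASO2 and ASO10, each relative to the same control, differed by the direct test of ASO2 against ASO10 (edgeR, adjusted over all regions). The log2 difference was 0.72 at the start of ZNF285, -0.41 at the start of ZNF576, -0.43 and -0.37 at internal starts of ZNF574 and ZNF558, and 3.89 in the low-count region inside ZNF578, a fitted value that depends on the prior count because ASO10 held 2 counts. In ZNF536 it was 0.77, -0.49 and 0.73 at 28.4, 162.0 and 342.2 kb from the gene start, so the sign changed along the gene. Of the 8, the ZNF285 difference was the only one kept in all 9 other settings and in all 9 fits without 1 library. Why the oligonucleotides differ in these regions was not tested.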

How the results depend on the processing

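The counts of called regions are small, so 1 or 2 regions move them by over 1.5 times. Of 1022 fold changes of named chromosome 19 ZNF regions recomputed under other settings, 914 kept direction and lost no call, 108 kept direction but lost the call, and 0 reversed. Most of the 1022 had no call in the main fit, so the 914 are not calls that held. All 108 losses fall on the called regions, for which the lost settings are given above. Of 276 counts and medians, 208 stayed close and 68 moved; except where a value below shows it, the cause was not tested. Gene-end calls, 3 in ASO2, were 6 with loess offsets, 5 with at least 10 counts in every library and 0 with an absolute log2 fold change over 1. Those in ASO10, also 3, were 1, 5 and 0 under the same settings. The 2 direct calls became 1, 5 and 0, 4 with limma-voom, 1 with no filter, 5 with only the 2 groups, 1 within 500 bases, 1 without regions at another gene end and 4 with listed internal starts. The ASO10 gene-end median was -0.0050 with loess offsets. Body calls in ASO2, 5, were 3 with DESeq2, 8 with at least 10 counts, 2 over 1 log2 and 2 without ZNF536. Those in ASO10, 2, were 1 with loess offsets, 0 over 1 log2, 1 within 2 kb and 1 without listed internal starts. The 6 direct body calls were 3 with DESeq2, 3 with loess offsets, 3 with no filter, 1 over 1 log2 and 3 without ZNF536. Body medians were -0.079 in ASO2 and -0.11 directly with only the 2 groups, and in ASO10 -0.074 with loess offsets, 0.013 with limma-voom and -0.13 without listed internal starts.

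Leaving out 1 library gave 1 to 4 gene-end calls in ASO2, 0 to 3 in ASO10 and 1 to 6 directly, with medians of -0.084 to 0.012, 0.042 to 0.097 and -0.16 to -0.066. The extremes of the ASO2 count came without ASO2 replicate 1 and replicate 2, and the lowest ASO10 count without NCA replicate 1. Body calls ran from 2 to 5, 0 to 2 and 1 to 7, with medians of -0.11 to -0.012, -0.063 to 0.020 and -0.081 to 0.0016. Settings that remove listed starts, gene ends or ZNF536 were chosen after seeing the data.

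With the replicate block, gene-end calls were 3, 2 and 1 and body calls 5, 1 and 4 in ASO2, ASO10 and the direct comparison. Deviations of same-numbered libraries correlated between -0.0397 and 0.0137, and those of differently numbered libraries between -0.0227 and 0.0337. These correlations run over all tested regions, at a median log2 CPM of 1.49, where counting noise can hide a pairing. They therefore cannot tell whether the numbers pair the libraries. With the block, 5 calls of named members were lost, those of ZNF136 and ZNF574 in ASO10 and of ZNF558, ZNF576 and the ZNF536 region at 162.0 kb directly.

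Median standard errors of a log2 fold change were 0.51 in the body class, at a median log2 CPM of 1.13, and 0.16 in the gene-end class, at 3.99.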
